A study of Mus musculus with 10 samples.

Results

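Suppressors of cytokine signalling (SOCS proteins) and the JAK-STAT pathway they restrain were followed through 10 genes, chosen as the rows of the deposited count table with the symbols Cish, Socs1, Socs2, Socs3, Il6st, Jak1, Jak2, Stat3, Stat5a and Pim1. All 10 were found among the 22457 genes of the table. The compared libraries are 3 from M3-CKO and 3 from Ctrl mouse tracheal epithelial organoids, multicellular structures grown in Matrigel from airway basal cells and harvested on day 14. The series title gives M3-CKO as a Mettl3 knockout, and Mettl3 is the catalytic subunit of the enzyme complex that writes N6-methyladenosine (m6A) on mRNA. Both groups were grown in the same medium, with epidermal growth factor, insulin, cholera toxin, retinoic acid, bovine pituitary extract and serum, and with the TGF-beta and BMP receptor inhibitors A83-01 and DMH-1. The protocol also describes a serum-free differentiation medium, and which libraries were moved to it is not stated. The labels give no Cre driver, strain, age or sex, and do not tell if the replicates came from different animals. P-values therefore speak only of the spread among these 6 libraries, part of which may be technical. The series also has 4 libraries of m6A immunoprecipitation and input, 1 of each per genotype, which were not analysed here, so no methylation level of any of the 10 mRNAs is given.

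Cytokines such as LIF and interleukin 6 bind receptors that share the signal-transducing chain gp130, the product of Il6st. Receptor binding activates JAK kinases, which phosphorylate STAT transcription factors, and these enter the nucleus. CISH, SOCS1, SOCS2 and SOCS3 are themselves induced by STAT factors and shut the pathway down, by blocking JAK kinases or receptor docking sites and by recruiting a ubiquitin ligase through their SOCS box. In mouse T cells the Socs1, Socs3 and Cish mRNAs are known m6A targets that are degraded less when Mettl3 is deleted. In airway epithelium STAT3 signalling is known for its part in repair and in the choice of basal cells between secretory and ciliated fates.

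STAT dimers bind the palindrome TTCNNNGAA, which reads the same on both strands. It was searched in the RefSeq promoter windows of build GRCm38.p6, which run from 250 bases before to 50 after a gene's start. Of the 10 genes, 9 had a window, with 11 windows in all, and Socs2 had none. The palindrome was in 2 of the 11 windows, that of Cish with 2 copies and that of Socs3 with 1. Of all 32851 windows, 8.3% had at least 1 copy and 0.457% at least 2. The variant with 4 bases between the arms, TTCNNNNGAA, was in 0 of the 11 windows and in 6.95% of all windows. The windows of Socs1 and Pim1, genes that STAT factors also induce, held neither form. Both windows with the palindrome are shown, with the palindromes in capitals. The Cish window is chr9:107296409-107296708 on the plus strand, and its palindromes TTCCTGGAA and TTCTTGGAA start at bases 251 and 262 of the window. The Socs3 window is chr11:117969317-117969616 on the minus strand, and its palindrome TTCTTAGAA starts at base 97. A match describes the letters only and does not show binding.
Cish: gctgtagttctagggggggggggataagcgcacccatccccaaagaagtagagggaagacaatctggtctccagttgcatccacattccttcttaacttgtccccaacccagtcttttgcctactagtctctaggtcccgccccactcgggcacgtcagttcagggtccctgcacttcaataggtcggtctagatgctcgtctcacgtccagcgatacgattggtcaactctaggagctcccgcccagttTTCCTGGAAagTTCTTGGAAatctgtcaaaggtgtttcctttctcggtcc
Socs3: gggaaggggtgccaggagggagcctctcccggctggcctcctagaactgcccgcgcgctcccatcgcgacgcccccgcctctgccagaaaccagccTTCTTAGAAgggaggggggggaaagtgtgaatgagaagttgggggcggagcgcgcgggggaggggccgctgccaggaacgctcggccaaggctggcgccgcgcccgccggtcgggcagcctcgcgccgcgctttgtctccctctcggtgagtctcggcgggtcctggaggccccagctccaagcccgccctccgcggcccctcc

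Sequencing depth was similar, from 8906375 to 10485922 counts per library, and 13528 genes passed the low-count filter, all 10 members among them. Levels are CPM (counts scaled to library size, with TMM factors), and they are compared between libraries and not between genes, because the table gives no gene lengths. Mettl3 itself had a mean of 10.4 ± 0.632 CPM in M3-CKO libraries and 16.95 ± 1.96 CPM in Ctrl libraries (SD, n = 3 each; log2 fold change -0.70, SE 0.21, adjusted p = 0.12). Its groups did not overlap, but the difference did not pass the test. It was called by DESeq2 (adjusted p = 0.0488) and without M3-CKO replicate 3 (-0.67, adjusted p = 0.043). Reads outside a deleted part of the gene would also be counted. M3-CKO replicate 3 stood apart: its Pearson r across genes of log2(CPM + 1) was 0.930 and 0.920 with M3-CKO replicates 1 and 2, which had 0.990 with each other, and 0.934 to 0.938 with the Ctrl libraries. Results that rest on this library are therefore given with and without it. Basal cell markers were present in every library, summing over 8 genes to 1390 to 1430 CPM in M3-CKO and 2385 to 2806 CPM in Ctrl. Of the defining markers of immune cells, which also express many JAK-STAT genes, Ptprc had no count in 5 of the 6 libraries and stood at 0.211 CPM in Ctrl replicate 2, while 6 of 12 listed immune genes have no value here. The immune genes with a row summed to 460.7 to 794.5 CPM in M3-CKO and 536.4 to 1434 CPM in Ctrl, of which Lyz2 and Cd68, which epithelium can also express, made up nearly the whole. Other immune genes were low but present. Itgam had 3.77, 5.25 and 0.407 CPM in M3-CKO replicates 1 to 3, against 4.70, 9.30 and 9.55 CPM in Ctrl. In the same M3-CKO libraries Csf1r had 3.19, 1.37 and 0.610 CPM and Ccl5 1.64, 3.65 and 0.203 CPM. Ctrl had 0.218 to 0.740 CPM of Csf1r and 0.211 to 0.655 CPM of Ccl5. Their part in the levels of the members was not tested.

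Levels of the SOCS inhibitors and of the JAK-STAT components did not differ between M3-CKO and Ctrl organoids by a margin that passed the test. Of the 10 members 0 were called at an adjusted p under 0.05 by the edgeR quasi-likelihood test, against 2.91% of all tested genes, and limma-voom and DESeq2 also called 0, where DESeq2 called 10.4% of the genes it adjusted. At an unadjusted p under 0.05 stood 1 member, Stat3, against 20.5% of tested genes. Socs2, Cish, Pim1, Jak2 and Socs3 had a positive log2 fold change and Socs1, Il6st, Stat3, Jak1 and Stat5a a negative one. The median was -0.10 and the median size 0.36, against 0.02 and 0.31 over all tested genes, and 0 members differed by 2-fold or more. In 4 members, Il6st, Stat3, Jak1 and Stat5a, every M3-CKO library lay below every Ctrl library, and 0 members had every M3-CKO library above. Of all tested genes, 13.5% showed such a gap with M3-CKO lower and 13.7% with M3-CKO higher.

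**Figure D1:**
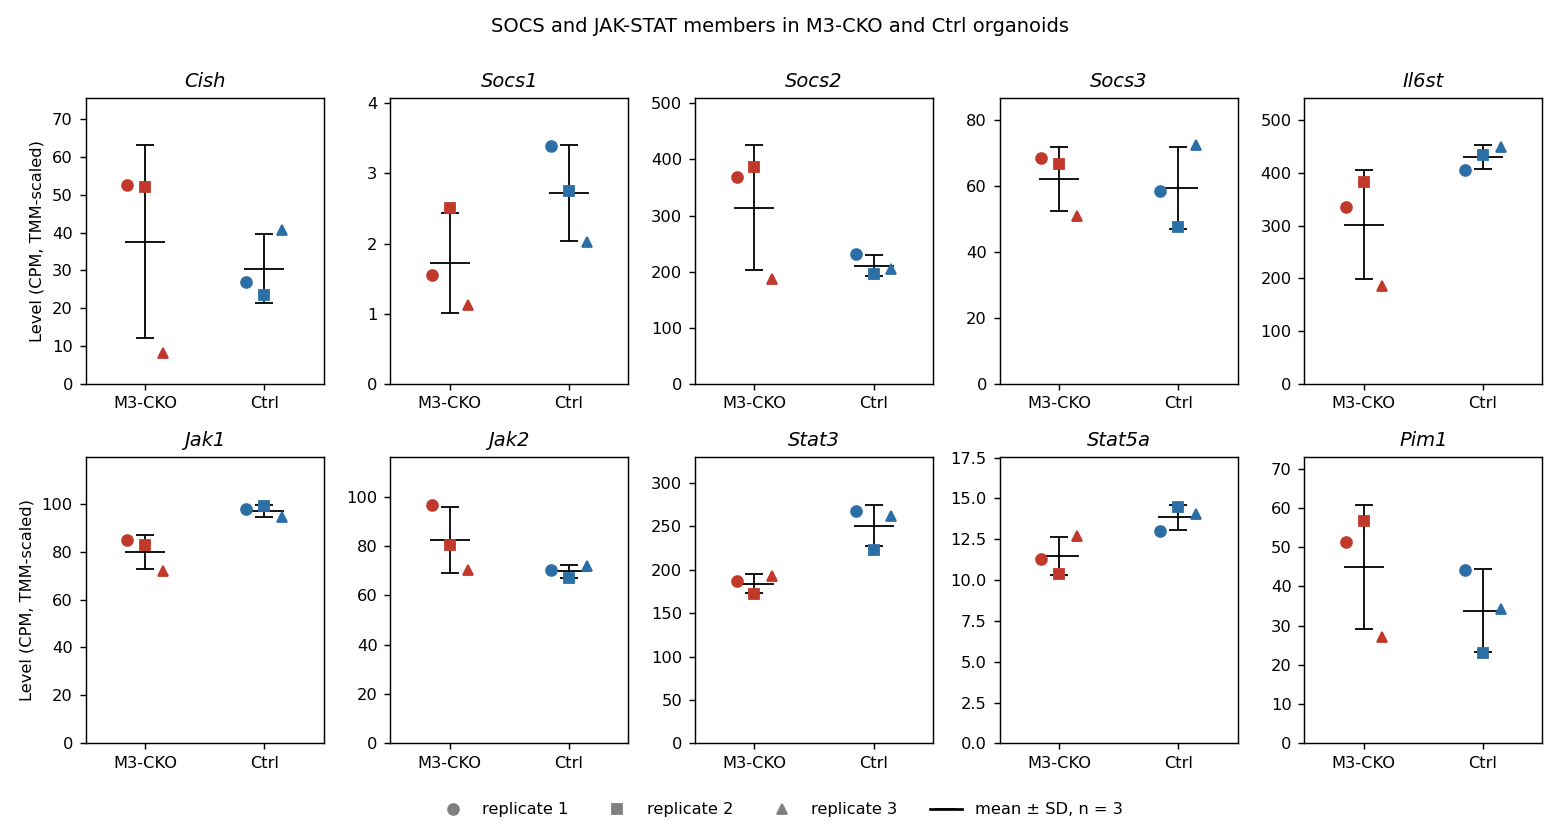
Level of each of the 10 members in CPM on TMM-scaled library sizes (vertical axis from 0, a scale for each gene), with 1 point per library, M3-CKO in red and Ctrl in blue, the replicate number given by the symbol, and bars for the mean ± SD of 3 libraries. Stat3, Stat5a, Jak1 and Il6st show no overlap of the groups, and the M3-CKO triangle (replicate 3) is the lowest M3-CKO point for 8 of the 10 genes, far below the others for Cish at 8.03 CPM.

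Among the inhibitors, Cish, whose protein binds cytokine receptors that use STAT5, was the most variable. Its levels were 52.5, 52.0 and 8.03 CPM in M3-CKO replicates 1 to 3, against 27.0, 23.5 and 40.8 CPM in Ctrl replicates 1 to 3. M3-CKO replicates 1 and 2 thus lay above every Ctrl library and replicate 3 below every one. The means of 37.5 ± 25.5 CPM in M3-CKO and 30.4 ± 9.15 CPM in Ctrl (SD, n = 3 each) differed by a log2 fold change of 0.30, with SE 0.60 and adjusted p = 0.83, and with an unadjusted 95% interval from 0.467- to 3.26-fold. With M3-CKO replicate 3 left out it was 0.78 (adjusted p = 0.037), and with M3-CKO replicate 1 left out it was -0.02 (adjusted p = 0.995).

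Socs2, which encodes the main feedback inhibitor of growth hormone signalling in mice, had 369, 387 and 187 CPM in M3-CKO replicates 1 to 3, against 232, 196 and 204 CPM in Ctrl. Again M3-CKO replicates 1 and 2 were above all Ctrl libraries and replicate 3 was below all of them. The log2 fold change of 0.58 (SE 0.27, adjusted p = 0.29) had an interval from 0.960- to 2.32-fold, and without M3-CKO replicate 3 it was 0.84 (adjusted p = 0.0025). This split of the M3-CKO libraries around the whole Ctrl range was seen in 2 of the 10 members and in 7.75% of all tested genes.

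Socs3, which encodes the inhibitor that docks on gp130, had the closest group means of the 10. Socs3 levels were 68.5, 66.6 and 50.8 CPM in M3-CKO replicates 1 to 3, against 58.3, 47.6 and 72.2 CPM in Ctrl. The 3 M3-CKO values all lay inside the Ctrl range. The log2 fold change was 0.06 (SE 0.21, adjusted p = 0.90), with an interval from 0.749- to 1.45-fold, so a doubling lies outside it.

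Socs1, the inhibitor of interferon and interleukin signalling that acts on JAK kinases directly, was close to the detection limit. It had 16, 22 and 11 counts in M3-CKO replicates 1 to 3 and 31, 26 and 18 in Ctrl, or 1.54, 2.51 and 1.12 CPM in M3-CKO and 3.38, 2.75 and 2.02 CPM in Ctrl. The groups overlapped, since M3-CKO replicate 2 lay above Ctrl replicate 3. With counts this low the log2 fold change of -0.66 (SE 0.46, adjusted p = 0.47) had a wide interval, from 0.303- to 1.33-fold.

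Of the other SOCS genes, Socs5 and Socs6 had the lowest adjusted p. Socs5 had 129.6, 126.5 and 114.2 CPM in M3-CKO replicates 1 to 3, against 87.1, 99.6 and 97.3 CPM in Ctrl (log2 fold change 0.38, SE 0.14, adjusted p = 0.17), and was the only gene of the family whose groups did not overlap. Socs6 stood at 323.3, 353.3 and 133.4 CPM in M3-CKO, against 136.2, 150.4 and 160.5 CPM in Ctrl (0.86, SE 0.34, adjusted p = 0.20), with M3-CKO replicate 3 again below all Ctrl libraries. For Socs4 the log2 fold change was 0.30 (SE 0.21, adjusted p = 0.45). Over the 8 SOCS family genes 0 were called by edgeR or DESeq2, and 2 stood at an unadjusted p under 0.05, against 20.5% of all tested genes. In this family 6 genes had a positive log2 fold change and the median was 0.30. In all 8 genes M3-CKO replicate 3 was the lowest of the 3 M3-CKO libraries, which was so for 44% of tested genes. Without that library 5 of the 8 were called higher in M3-CKO (Socs2, Cish, Socs4, Socs5 and Socs6) and 0 were called lower. Of all genes tested in that setting 13.7% were called higher and 11.3% lower. Because replicate 3 was the lowest M3-CKO library in all 8, leaving it out raises their M3-CKO means. This count is therefore no separate support for a rise of the family.

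The genes whose patterns over the 6 libraries were most like those of the inhibitors were found by the root mean square difference of log2 CPM centred on each gene's mean, among 10552 candidates for Socs1 and 10551 for each of the others. For Socs2 these were Il17rd (0.051), Arhgef5 (0.052) and Pprc1 (0.060), against a spread of 0.43 for Socs2 itself. For Cish they were Nlrp10 (0.142), Rhobtb3 (0.157) and Epha7 (0.195), against a spread of 0.922. Nlrp10 had 352.5, 319.8 and 61.7 CPM in M3-CKO replicates 1 to 3, against 219.1, 149.8 and 264.4 CPM in Ctrl. Its lowest value in M3-CKO replicate 3 follows from how it was picked, as the closest of 10551 candidates over these same 6 libraries. For Socs3 they were Ccdc163 (0.041), Nit1 (0.061) and Zcchc3 (0.061), and for Socs1 they included Frg1 (0.098) and Olfml2a (0.153).

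On the receptor side, Il6st, which encodes gp130, was lower in every M3-CKO library. Its levels were 336.0, 382.7 and 185.6 CPM in M3-CKO replicates 1 to 3, against 405.2, 433.9 and 449.6 CPM in Ctrl. Replicate 3 was the lowest by a wide margin, at 51.6% of the mean of M3-CKO replicates 1 and 2. The log2 fold change of -0.51 (SE 0.26, adjusted p = 0.33) had an interval from 0.460- to 1.07-fold, and without M3-CKO replicate 3 it was -0.26.

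Around gp130, the receptor list held the only gene of the gp130 system that edgeR called. Lifr, which encodes the chain that pairs with gp130 to bind LIF, rose to 49.2, 45.8 and 67.6 CPM in M3-CKO replicates 1 to 3, against 29.4, 25.2 and 26.2 CPM in Ctrl (log2 fold change 1.01, SE 0.20, adjusted p = 0.044). DESeq2 also called it (adjusted p = 6.1e-04), and limma-voom did not (adjusted p = 0.0544). Lif, the ligand, had 610.4, 790.7 and 210.2 CPM in M3-CKO and 156.6, 190.8 and 178.6 CPM in Ctrl, with no overlap. The log2 difference of 1.61 (SE 0.43) failed the test (adjusted p = 0.088), was 1.99 without M3-CKO replicate 3 (adjusted p = 3.3e-04) and was called by DESeq2 (adjusted p = 0.0032). Clcf1, which encodes cardiotrophin-like cytokine, stood at 0.40 (SE 0.29, adjusted p = 0.49). The genes for 2 other receptor chains had groups that did not overlap, with M3-CKO lower and no call by edgeR (chosen after their values were seen). Il6ra had 4.54, 5.82 and 3.46 CPM in M3-CKO replicates 1 to 3 and 8.95, 9.94 and 20.1 CPM in Ctrl (-1.50, SE 0.40, adjusted p = 0.088), and was called lower by DESeq2 (adjusted p = 0.011) and without M3-CKO replicate 3 (adjusted p = 0.042). Osmr stood at -0.34 (SE 0.14, adjusted p = 0.22; DESeq2 adjusted p = 0.20). Counted over the lists, 1 of 5 tested gp130 family receptors was called higher and 0 lower, with a median of -0.34, and 0 of 4 tested ligands were called, with a median of 0.20. Higher calls made up 1.74% of all tested genes and lower calls 1.16%.

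**Figure D2:**
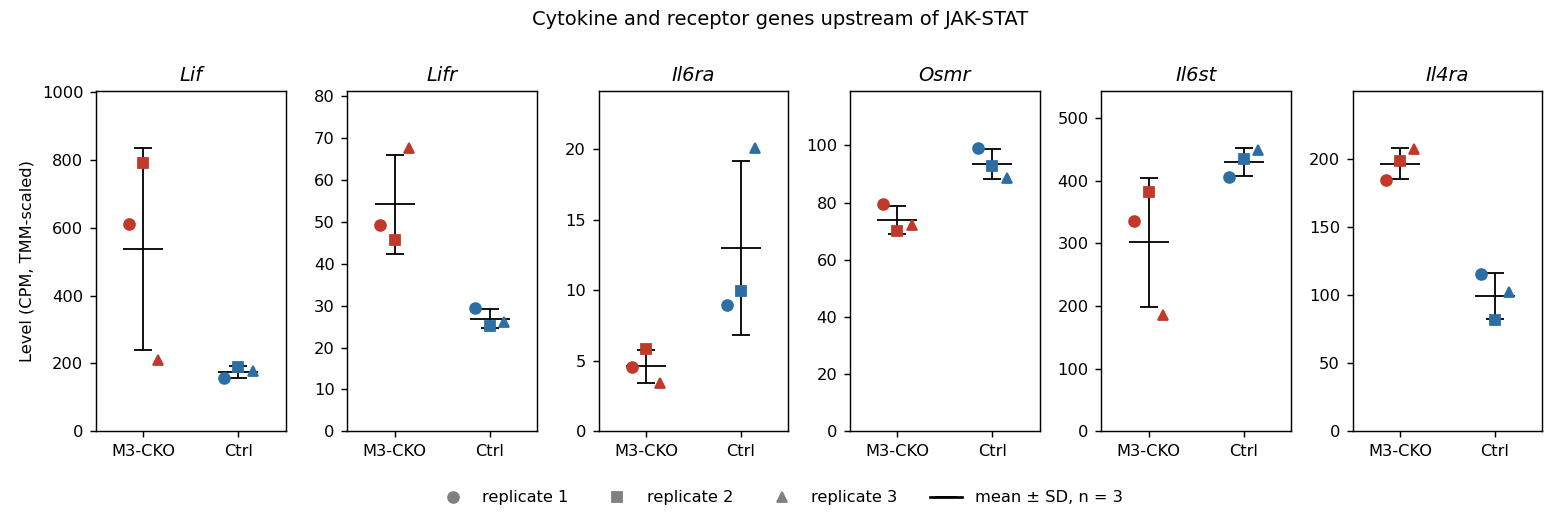
Levels in CPM on TMM-scaled library sizes (vertical axis from 0, a scale for each gene) of the ligand gene Lif and of 5 receptor genes, with 1 point per library, M3-CKO in red left of Ctrl in blue, and bars for the mean ± SD of 3 libraries. In all 6 panels the groups do not overlap, with Lif, Lifr and Il4ra higher and Il6ra, Osmr and Il6st lower in M3-CKO. The panels are a choice of genes and not whole lists. Such a gap was seen in 27.1% of all tested genes. With M3-CKO higher and lower it was seen in 1 and 1 of 4 tested ligands and in 1 and 3 of 5 gp130 family receptors. For the other JAK-coupled receptors it was 4 and 2 of 15. Of the 6 genes, Lifr and Il4ra passed the test.

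Among the other receptors that signal through JAK kinases, Il4ra, a chain of the receptors for interleukins 4 and 13, rose to 184.8, 198.6 and 207.4 CPM in M3-CKO replicates 1 to 3, against 115.4, 81.6 and 102.3 CPM in Ctrl (log2 fold change 0.98, SE 0.17, adjusted p = 0.034). No other of the 15 tested genes in this list was called by edgeR, and its median was 0.12. DESeq2 called Il4ra as well (adjusted p = 4.2e-05). It also called Ghr, the growth hormone receptor gene, which had 27.2, 32.9 and 33.4 CPM in M3-CKO replicates 1 to 3, against 48.3, 44.3 and 56.2 CPM in Ctrl (log2 fold change -0.67, SE 0.17, edgeR adjusted p = 0.082; DESeq2 adjusted p = 0.018, and 0.016 by edgeR without M3-CKO replicate 3). Ghr was picked with its values in view. Both edgeR receptor calls depended on the libraries used. Without any 1 of M3-CKO replicates 1 and 2 and Ctrl replicates 1, 2 and 3 the adjusted p was 0.095 to 0.20 for Lifr and 0.098 to 0.17 for Il4ra, while the log2 fold changes stayed between 0.96 and 1.13 and between 0.85 and 1.10. Few genes at all were called in those 5 settings, 14, 18, 0, 1 and 0 over the whole table. Without M3-CKO replicate 3 Lifr and Il4ra were both called, at adjusted p of 0.0058 and 0.0045.

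Of the kinases, Jak1, which serves gp130 and interferon receptors, had 84.9, 82.7 and 71.8 CPM in M3-CKO replicates 1 to 3, against 97.9, 98.96 and 94.3 CPM in Ctrl. All M3-CKO values lay below the Ctrl values, and the Ctrl libraries varied by 2.50% of their mean. The log2 fold change was -0.28 (SE 0.14, adjusted p = 0.30), with an interval from 0.659- to 1.03-fold.

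Jak2, the kinase of growth hormone and erythropoietin receptors, had 96.8, 80.3 and 70.4 CPM in M3-CKO replicates 1 to 3 and 70.5, 66.9 and 71.9 CPM in Ctrl. M3-CKO replicates 1 and 2 lay above all Ctrl libraries and replicate 3 among them. Its log2 fold change was 0.24 (SE 0.16, adjusted p = 0.45), and the interval from 0.911- to 1.53-fold leaves out a doubling. The remaining kinases Tyk2 (0.25, SE 0.17, adjusted p = 0.47) and Jak3 (-0.01, SE 0.33, adjusted p = 0.99) were not called either.

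Stat3, the transcription factor downstream of gp130, came nearest to the threshold. It had 186.6, 171.7 and 192.8 CPM in M3-CKO replicates 1 to 3, against 267.4, 223.3 and 261.5 CPM in Ctrl. No M3-CKO library reached the lowest Ctrl library, and here M3-CKO replicate 3 lay close to replicates 1 and 2, at 107.6% of their mean. The means of 183.7 ± 10.8 CPM in M3-CKO and 250.7 ± 23.9 CPM in Ctrl (SD, n = 3 each) gave a log2 fold change of -0.45 (SE 0.15), an unadjusted p of 0.016 and an adjusted p of 0.14, with an unadjusted interval from 0.580- to 0.927-fold. The adjusted p was 0.0545 with DESeq2 and 0.026 without M3-CKO replicate 3. A two-sided exact permutation test gave p = 0.1, the lowest value possible with 3 libraries against 3. Groups without overlap always give this value, as for Il6st, Jak1 and Stat5a, so it adds nothing to the gap itself. Of the 8 basal cell markers, the keratins Krt5, Krt14 and Krt15 were called lower in M3-CKO. The other 5 were not called. Of these, Trp63, Ngfr and Snai2 had log2 fold changes of -0.81, -0.75 and -0.76, and Pdpn stood at -0.06. Itga6 alone was positive, at 0.42, with 656.6, 703.7 and 275.4 CPM in the M3-CKO libraries, against 367.7 to 429.1 CPM in Ctrl. The part of the basal markers in the Stat3 difference was not tested. In organoid RNA, fewer cells of a type and less RNA per cell cannot be told apart.

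Stat5a, which encodes one of a pair of near-identical STAT5 factors, had 11.3, 10.4 and 12.7 CPM in M3-CKO replicates 1 to 3, against 13.0, 14.5 and 14.0 CPM in Ctrl. The groups did not overlap, although M3-CKO replicate 3 came close to Ctrl replicate 1. The log2 fold change was -0.27 (SE 0.21, adjusted p = 0.53), with an interval from 0.588- to 1.17-fold. Its neighbour Stat5b stood at -0.26 (SE 0.16, adjusted p = 0.41). Reads could have been shared or dropped between these paralogs, so both values are uncertain.

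Over the STAT family, 0 of 6 tested genes were called, 5 had a negative log2 fold change, and the median was -0.34. In 4 of them, Stat3, Stat5a, Stat5b and Stat6, every M3-CKO library lay below every Ctrl library, as in 13.5% of all tested genes. Stat3 and Stat5a are members already counted above. Stat6, the factor that interleukin 4 receptors activate, had 101.4, 103.6 and 107.2 CPM in M3-CKO replicates 1 to 3, against 147.7, 134.7 and 133.9 CPM in Ctrl (-0.42, SE 0.13, adjusted p = 0.13), and DESeq2 called it (adjusted p = 0.0496). Without M3-CKO replicate 3 edgeR called 2 of the 6 lower, Stat3 and Stat6 (adjusted p = 0.026 and 0.024), and 0 higher. The shares over all genes tested in that setting were 11.3% lower and 13.7% higher.

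Pim1, a kinase gene induced by STAT3 and STAT5, had 51.3, 56.7 and 27.1 CPM in M3-CKO replicates 1 to 3, against 44.1, 22.9 and 34.4 CPM in Ctrl. M3-CKO replicates 1 and 2 were above all Ctrl libraries, while replicate 3 fell among them. The log2 fold change of 0.41 (SE 0.33, adjusted p = 0.54) had an interval from 0.777- to 2.28-fold. The other PIM kinase genes, Pim3 and Pim2, had log2 fold changes of 0.10 and 0.06 with adjusted p of 0.85 and 0.94.

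**Figure D3:**
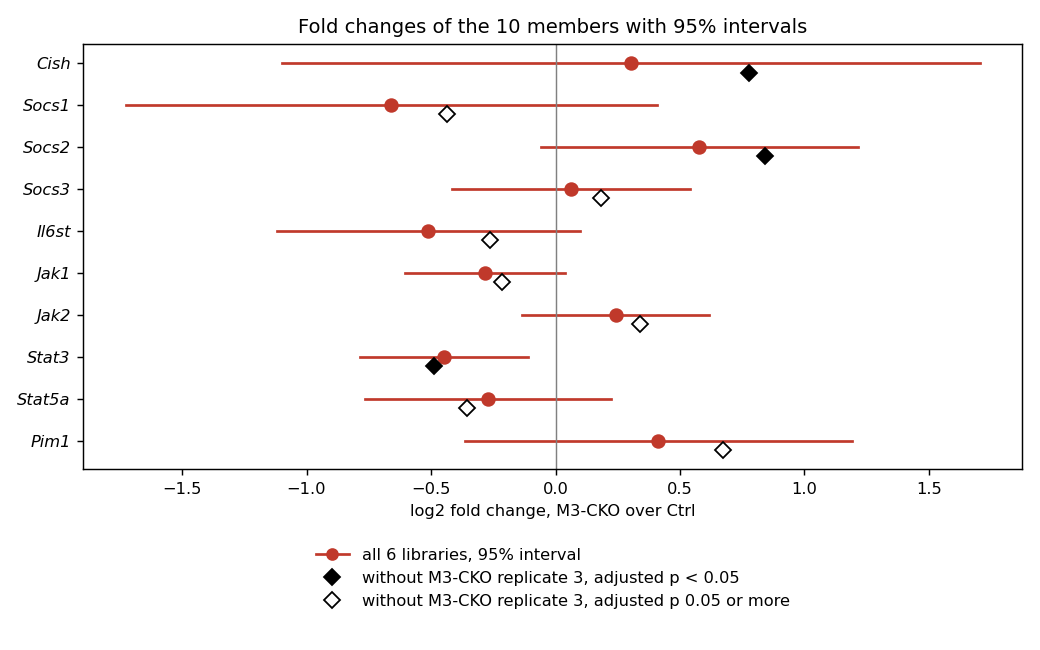
Log2 fold change of M3-CKO over Ctrl for each of the 10 members (horizontal axis), with red points and unadjusted 95% intervals from all 6 libraries and diamonds for the fit without M3-CKO replicate 3, filled where the adjusted p was under 0.05. The interval of Stat3 alone leaves out 0, and the filled diamonds are those of Cish, Socs2 and Stat3.

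Among other genes that STAT factors are known to induce, 1 was called. Of 24 tested STAT3 targets, a list that includes Socs3, Pim1 and Il4ra, 1 was called higher (Il4ra) and 0 lower. Of these 24, 16 had a positive log2 fold change and the median was 0.13. DESeq2 called 2 higher (Il4ra and Bcl2l1) and 2 lower (Fos and Lcn2), against 10.4% of all genes it adjusted. Without M3-CKO replicate 3 edgeR called 4 of the 24 higher and 3 lower, with a median of 0.18. The shares over all genes tested in that setting were 13.7% higher and 11.3% lower. Fos, an immediate early gene that many other pathways also induce, had 122.2, 138.0 and 23.5 CPM in M3-CKO replicates 1 to 3 and 293.6, 517.5 and 781.4 CPM in Ctrl (log2 fold change -2.49, SE 0.64, adjusted p = 0.082; DESeq2 adjusted p = 4.8e-04, and 0.0061 by edgeR without M3-CKO replicate 3), and Lcn2, a secreted siderophore-binding protein gene, stood at -0.86 (SE 0.27, adjusted p = 0.13; DESeq2 adjusted p = 0.038). Both were chosen after their values were seen. Of 11 tested STAT5 targets, which include Cish, Socs2 and Pim1, 0 were called by edgeR, 1 stood at an unadjusted p under 0.05, and 1 was called by DESeq2. The shares over all genes were 2.91%, 20.5% and 10.4%. In this list 8 genes had a positive and 3 a negative log2 fold change, with a median of 0.17. Without M3-CKO replicate 3 there were 4 called higher (Cish, Socs2, Bcl2l1 and Cdkn1a) and 1 lower (Id1), with a median of 0.45. Of all genes tested in that setting 13.7% were called higher and 11.3% lower. Replicate 3 was the lowest M3-CKO library in 7 of the 11 genes, so leaving it out raises the M3-CKO means of those genes. The gene called by DESeq2 was Bcl2l1, which encodes the survival factor BCL-XL and stands in both lists, with 415.5, 331.3 and 399.4 CPM in M3-CKO and 263.7, 162.6 and 196.7 CPM in Ctrl (0.88, SE 0.21, adjusted p = 0.069; DESeq2 adjusted p = 0.0047). Id1 (-0.57, SE 0.43) and Cdkn1a (0.61, SE 0.52) had the next lowest adjusted p among the genes that are not members, 0.51 and 0.56.

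Negative regulators outside the SOCS family were not called in any of 12 tested genes, with 3 at an unadjusted p under 0.05 and 2 called by DESeq2. The shares over all genes were 20.5% and 10.4%. Ptpn1, a phosphatase that acts on JAK2 and TYK2, had 110.7, 90.3 and 113.9 CPM in M3-CKO replicates 1 to 3, against 173.9, 164.0 and 151.5 CPM in Ctrl (log2 fold change -0.64, SE 0.15, adjusted p = 0.069; DESeq2 adjusted p = 0.0069). Pias4, which encodes a SUMO ligase of the PIAS family, pointed the other way at 0.68 (SE 0.19, adjusted p = 0.10; DESeq2 adjusted p = 0.032), as did Pias2 at 0.44 (SE 0.17, adjusted p = 0.20). Of 13 genes for m6A writers, readers and erasers, 1 was called by edgeR, against 2.91% of all tested genes, and 10 had a positive log2 fold change. DESeq2 called 3 higher (Ythdf2, Ythdf1 and Rbm15) and 1 lower (Mettl3), against 10.4% of the genes it adjusted. Ythdf1 stood at 0.75 (SE 0.19, adjusted p = 0.075; DESeq2 adjusted p = 0.012). Rbm15 stood at 0.79 (SE 0.17, adjusted p = 0.058; DESeq2 adjusted p = 0.0050). These 2 genes were chosen after their values were seen. Ythdf2, a reader that promotes decay of methylated mRNA, rose by 0.89 on the log2 scale (SE 0.15, adjusted p = 0.032). Its adjusted p was 0.10 to 0.17 without any 1 of M3-CKO replicates 1 and 2 and Ctrl replicates 1, 2 and 3, settings with 0 to 18 genes called over the whole table. It was 0.0011 without M3-CKO replicate 3.

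**Figure D4:**
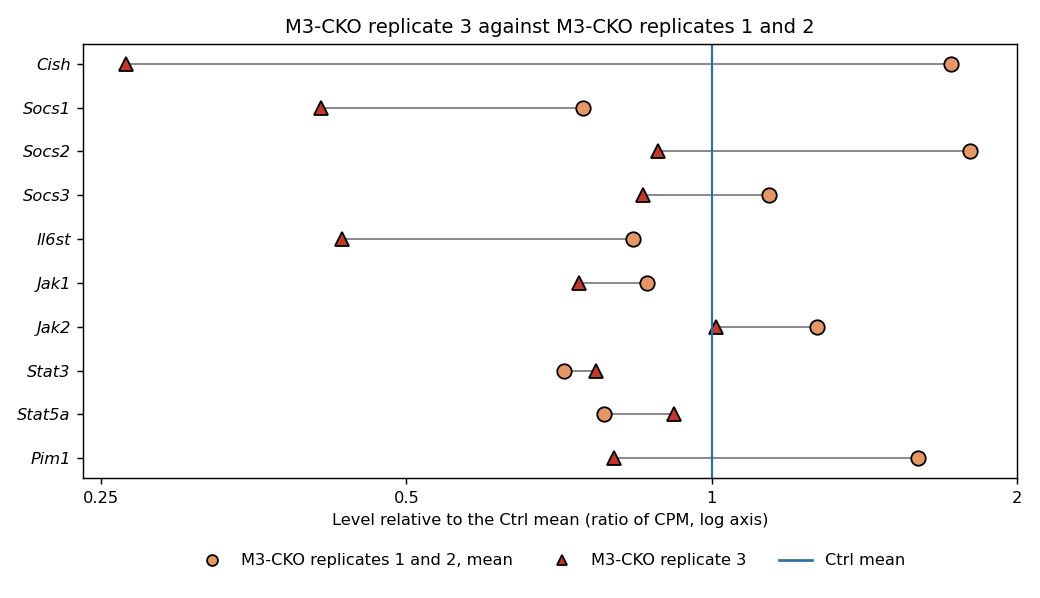
Level relative to the Ctrl mean (ratio of CPM, log axis) of each of the 10 members in M3-CKO replicates 1 and 2 (circles, mean of both) and in M3-CKO replicate 3 (triangles), with the Ctrl mean as a vertical line. For Cish, Socs2, Socs3 and Pim1 the circle lies right of the line and the triangle left of it, and the gap is widest for Cish, at 1.72 and 0.264.

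Within the M3-CKO group the members separated by library. Levels in replicate 3 were 15.4% of the mean of replicates 1 and 2 for Cish, 49.3% for Socs2, 50.1% for Pim1, 51.6% for Il6st, 55.2% for Socs1, 75.1% for Socs3, 79.5% for Jak2 and 85.7% for Jak1, and they were 107.6% for Stat3 and 117.3% for Stat5a. Replicate 3 was thus the lowest M3-CKO library in 8 of 10 members and the highest in 2, against 44% and 45.4% of all tested genes. Without it 3 of the 10 members were called, Socs2 and Cish higher and Stat3 lower, a share near the 25% of all genes called in that setting. That setting leaves replicates 1 and 2, the closest pair of all, so its p-values rest on a narrow spread. With replicate 3 of both groups left out, Socs2 (log2 fold change 0.82, adjusted p = 0.012) and Cish (1.05, adjusted p = 0.0084) were called and Stat3 was not (adjusted p = 0.069). Cell type markers also differed in this library. The 6 club cell genes summed to 2441, 1944 and 5124 CPM in M3-CKO replicates 1 to 3, against 3388 to 3877 CPM in Ctrl. Cyp2f2 made up 1418, 1068 and 2793 CPM of these M3-CKO sums. Scgb1a1, the only club cell gene called, was higher in M3-CKO (log2 fold change 5.23, adjusted p = 0.033). It had 83.2, 37.5 and 358.5 CPM in M3-CKO, against 2.81 to 5.57 CPM in Ctrl. Krt8 was at its lowest in M3-CKO replicate 3, at 251.2 CPM. The 7 hillock and squamous genes summed to 625.2, 579.1 and 1198 CPM in M3-CKO, against 1115 to 1283 CPM in Ctrl. Of the hillock and squamous sum in replicate 3, Sprr2a3 made up 869.9 CPM, while Krt13, Krt6a, Ivl and Ecm1 were at their lowest of the 6 libraries there. Krt4 (136.3, 109.2 and 213.0 CPM) and Sprr1a (54.8, 59.8 and 72.5 CPM) were instead highest of the M3-CKO libraries in replicate 3. These 2 were the only called genes of this list, both lower in M3-CKO (log2 fold change -1.82, adjusted p = 0.027, and -0.95, adjusted p = 0.039). The 6 goblet cell genes summed to 1045, 533.9 and 360.4 CPM in M3-CKO and to 68.5 to 173.0 CPM in Ctrl, and the 8 multiciliated genes to 571.0, 536.0 and 802.5 CPM in M3-CKO and to 517.4 to 546.4 CPM in Ctrl. Gp2 alone made up 969.9, 490.0 and 269.1 CPM of the goblet cell sums in M3-CKO, while the mucin gene Muc5ac averaged 3.16 CPM in both groups. Tubb4b made up 750.0 CPM of the multiciliated sum in replicate 3, where Foxj1, the regulator of motile cilia, was at 28.8 CPM, against 73.2 and 58.7 CPM in M3-CKO replicates 1 and 2. Their part in the levels of the SOCS and JAK-STAT genes was not tested.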

How the data were processed

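RNA-seq of 3 M3-CKO and 3 Ctrl libraries was used. The deposited values are raw whole-number counts per gene. The tools named, per the submitters' processing notes, are HISAT2, featureCounts and Trim Galore, and the build is mm39. Annotation, strandedness and multi-mapping rules were not given in the sources used. Values of overlapping genes and paralogs are therefore uncertain. Total counts were 8906375 to 10485922, so 10 CPM rests on 89.1 to 104.9 counts.

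Counts were tested with edgeR 4.0.16 in R 4.3.3 (filterByExpr, TMM, glmQLFit, glmQLFTest, no covariate, two-sided), with Benjamini-Hochberg adjustment over 13528 genes and calls at 0.05. Adjusted p-values come from this test unless DESeq2 is named. SE is the size of the log2 fold change over the square root of F, and intervals use the test's moderated degrees of freedom. The steps were tested on simulated data. Alternatives were DESeq2 1.42.0 (Wald test, and its size factors), limma-voom (limma 3.58.1), library size alone, 2 other count filters, a block for the replicate number, and each library left out in turn. Summing M3-CKO replicates 1 and 2, and leaving out replicate 3 of both groups, were chosen after seeing the data. M3-CKO replicates 1 and 2 differed by more than sampling noise (chi-square per degree of freedom 6.21) and were kept as 2 libraries.

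The members and gene lists were chosen with earlier results of these data known. Named genes are the members, Mettl3, the called genes of each list or else up to 3 non-members of lowest adjusted p, and the 3 genes most like each inhibitor (mean of at least 5 CPM, prior count of 2). Others are marked as chosen after their values were seen. Of the genes this rule picks, 3 are not reported here. Promoter sequences are RefSeq's, on GRCm38.p6, and no coordinates were converted.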

Additional observations from a re-analysis of the deposited data

How the results depend on the processing

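Of the 150 log2 fold changes of the 10 members under the alternatives, 141 kept their direction and their side of the threshold, 5 newly passed it (Socs2, Cish and Stat3 without M3-CKO replicate 3, Socs2 and Cish without replicate 3 of both groups) and 4 changed sign, none of them past the threshold. Cish was -0.082 with limma-voom, and -0.018 to 0.779 when each library was left out (below 0 without M3-CKO replicate 1). Socs3 was -0.08 to 0.221 when each library was left out (below 0 without M3-CKO replicate 1, at -0.015, and without Ctrl replicate 2). The number of members called was 0 in every setting except that leaving out each library in turn gave 0 to 3 and leaving out replicate 3 of both groups gave 2. The number of genes called over the whole table, 393, was 1402 with the DESeq2 Wald test, 740 without a low-count filter, 2624 without replicate 3 of both groups, 14 with M3-CKO replicates 1 and 2 summed, and 0 to 3483 when each library was left out in turn. It was 0 without Ctrl replicate 1 or 3, 1 without Ctrl replicate 2, 14 and 18 without M3-CKO replicates 1 and 2, and 3483 without M3-CKO replicate 3. Summing leaves 2 M3-CKO libraries and fewer degrees of freedom, and otherwise the cause was not tested. With the replicate number as a block it was 20, with 0 members called, and the adjusted p was 0.114 for Lifr, 0.101 for Il4ra and 0.10 for Ythdf2. Deviations of same-numbered libraries from their group means had correlations of -0.024, 0.021 and -0.111, so the numbers were not taken to pair the samples. Depth was low for Socs1, at 11 to 31 counts per library.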
